A study of Drosophila melanogaster with 2 samples.

Results

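A set of 10 genes of the Decapentaplegic (Dpp) pathway were examined for chromatin immunoprecipitation (ChIP) peaks of fd96Cb, a transcription factor of the forkhead family. The genes were dpp, sog, tkv, put, sax, Mad, Med, Dad, brk and shn, 10 of the 13945 protein-coding genes of Drosophila melanogaster, and each was found by its exact symbol in the annotation. They were listed by name for their place in the pathway. No measured value entered this rule, although earlier results of these data were known when they were chosen. All peak summits in each gene body and within 10 kb on either side were taken. These windows held 173 of the 30000 peaks called on the pooled replicates and 48 of the 5743 peaks of the optimal set. The optimal set is the deposited list thresholded by irreproducible discovery rate (IDR), a measure built on agreement of ranks between replicates. Its entries are called IDR peaks here. They were the 5743 pooled peaks of highest signal: the lowest had 128.73, and the highest pooled signal outside the set was 128.72. The name IDR peak thus states a rank by pooled signal, not agreement of the replicates at that peak.

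The chromatin came from whole embryos aged 0 to 24 h of a transgenic line that stably expressed fd96Cb fused at its C-terminus to green fluorescent protein (GFP). Both samples, biological replicates 2 and 3, belong to this single group, and no untagged or mutant group was compared. The labels describe an anti-GFP precipitation but give fd96Cb as the antibody, and fragments measured 200 to 800 bp. Whole embryos of this age span mix every tissue and most stages of embryogenesis, so strong binding in few cells and weak binding in many cannot be told apart. Sequencing depth is unknown. The signal value of a peak is the authors' own number, used here only to rank and describe peaks within a list, with rank 1 the strongest.

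Dpp is a secreted ligand of the bone morphogenetic protein (BMP) class. It signals through paired type I and type II receptor kinases, which phosphorylate the Smad protein Mad. Phosphorylated Mad enters the nucleus with its partner Medea, and the complex acts on target genes together with the zinc finger protein Schnurri. In the early embryo Dpp patterns the dorsal ectoderm and the amnioserosa, while Short gastrulation (sog) is secreted ventrolaterally, binds Dpp and limits where it signals. Brinker (brk) represses many Dpp targets and is itself repressed by the pathway, and Dad is an inhibitory Smad induced by it.

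The sequences at the strongest IDR summit in or nearest to each of 7 members are shown so that the letters under the strongest peak of each gene can be read beside its values. Each is 101 bases centred on the summit, taken from Release 6 of the genome (dm6), plus strand, 5′ to 3′. Capitals mark matches to the degenerate forkhead pattern RYAAAYA on either strand. Windows that touched an exon of a protein-coding gene were passed over. The sole IDR summits of sax and Med lay outside the gene and nearest to another gene, so neither is shown. The sequence at shn is not shown either. Its 12 IDR summits inside the gene were all intronic, so its absence here does not mean that it lacked a window clear of exons. The regions are chr2L:2433599-2433699 for dpp, chrX:15619461-15619561 for sog, chr2L:5238350-5238450 for tkv, chr3R:14624161-14624261 for put, chr2L:3153375-3153475 for Mad, chr3R:17065100-17065200 for Dad and chrX:7307165-7307265 for brk.
dpp: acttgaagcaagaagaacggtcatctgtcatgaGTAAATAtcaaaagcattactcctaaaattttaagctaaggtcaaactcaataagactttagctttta
sog: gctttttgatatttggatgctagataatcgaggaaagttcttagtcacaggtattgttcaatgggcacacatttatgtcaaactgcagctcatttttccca
tkv: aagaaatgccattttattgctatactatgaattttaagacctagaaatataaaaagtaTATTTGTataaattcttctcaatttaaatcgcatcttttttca
put: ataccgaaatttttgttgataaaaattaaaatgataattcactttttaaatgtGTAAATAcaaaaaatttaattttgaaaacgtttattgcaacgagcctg
Mad: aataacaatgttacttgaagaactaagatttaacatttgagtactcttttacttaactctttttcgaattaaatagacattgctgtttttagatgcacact
Dad: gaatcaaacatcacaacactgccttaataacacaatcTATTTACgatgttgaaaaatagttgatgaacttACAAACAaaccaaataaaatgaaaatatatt
brk: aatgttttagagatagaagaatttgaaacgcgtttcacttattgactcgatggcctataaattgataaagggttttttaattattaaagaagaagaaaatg
The windows of dpp, tkv and put each hold 1 match, that of Dad holds 2, and those of sog, Mad and brk hold none. GC content runs from 21.8% for tkv and put to 37.6% for sog. The longest uninterrupted run of A and T measures 16 bases at brk and 15 at put, against 6 at sog. The sog window was not lower in GC than its flanks, which averaged 30.2%, whereas each of the other 6 windows was.

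Every member had at least 1 IDR summit in its window, but 65.3% of all protein-coding genes did so as well, and the members differed widely in number and place. The counts were 14 for shn, 6 each for sog, tkv and brk, 5 for Dad, 4 for dpp, 3 for put, 2 for Mad, and 1 each for sax and Med. Some of these rest on 1 replicate: dpp had 2 without replicate 2, and Mad had 1 without replicate 3. The median was 4.5 over the members and 1 over all protein-coding genes. Gene bodies held 32 of the 48 summits, in 7 members, against 12.5% of all genes with an IDR summit in the body. The bodies of sax, Med and brk, of 3584, 4330 and 3194 bp, held none. These comparisons of counts are not matched for gene length. The median count in the window was 2 both for genes of 10 to 30 kb and for genes over 30 kb, and 1 for genes under 10 kb. Of the pooled summits in the windows, 27.7% were IDR peaks, that is, among the strongest by pooled signal, against 19.1% of the whole pooled list. For 35 of the 48 summits (72.9%) the nearest transcription start site (TSS) of a protein-coding gene was that of a member, which left sax and Med without one. Thus 8 members were nearest to some IDR summit, against 23.8% of all genes.

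**Figure D1:**
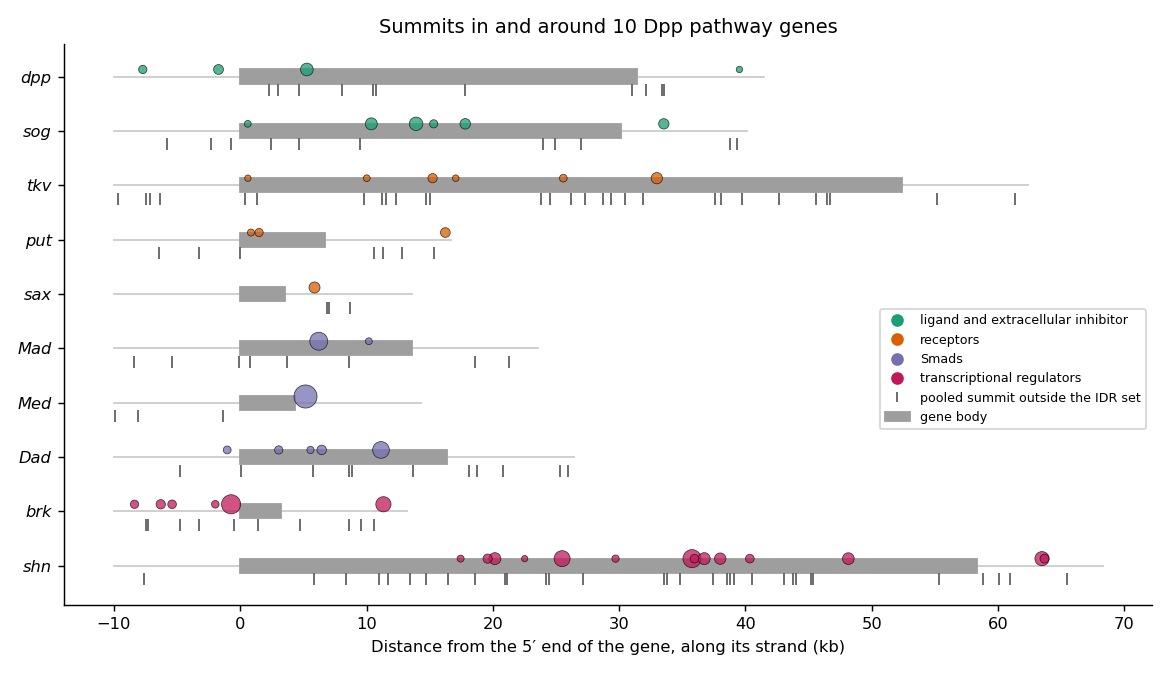
Summits in the windows of the 10 genes, by distance in kb from the 5′ end of each gene along its strand. Circles are IDR summits with area proportional to signal, ticks are other pooled summits, grey bars are gene bodies and thin lines the windows. The summits inside shn lie 17450 to 48147 bp from its 5′ end, those of brk lie outside its short body, and sax and Med each have a single circle beyond the 3′ end.

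At dpp (2L, 2428372 to 2459823, plus strand), which encodes the ligand, the strongest IDR summit lay in the first intron, 5277 bp downstream of the nearest dpp TSS. This peak (2433510 to 2433784) had a signal of 535 and ranked 962 in the pooled list, 863 in replicate 2 and 1075 in replicate 3. The ranks in both replicates were thus close to the pooled rank. A further IDR summit (signal 324) lay in intergenic sequence 1717 bp upstream of dpp, with rank 1860 in replicate 2 and 2049 in replicate 3. The weakest (signal 136) lay 8073 bp beyond the 3′ end, in a region where lncRNA:CR45286 has the nearest annotated TSS. The last of the 4 was at the promoter of the neighbour CG9886, 174 bp upstream of its TSS, and replicate 3 listed no summit within 100 bp of it. Of the 15 pooled summits at dpp, 11 were outside the IDR set.

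At sog (X, 15603283 to 15633434, minus strand), the gene for the extracellular inhibitor, 4 of the 6 IDR summits fell in the second intron of the longest transcript. The strongest 2 peaks there (15619342 to 15619623 and 15622925 to 15623171) had signals of 605 and 478. Their ranks were 661 and 953 in replicate 2 and 902 and 1267 in replicate 3, so the replicates kept their order. The other intronic summits had signals of 370.1 and 225. Another summit (signal 153) lay 598 bp inside the gene from its 5′ end, and its ranks differed more, at 3005 in replicate 2 and 6810 in replicate 3. The remaining IDR summit of sog lay in intergenic sequence 3387 bp beyond the 3′ end, where Chsy, a chondroitin synthase gene by its name, has the nearest TSS.

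Among the receptor genes, tkv (2L, 5219000 to 5271384, minus strand), which encodes a type I receptor, had 6 IDR summits, all within the gene. Of these, 5 were in introns and 1 at the promoter, 607 bp downstream of the first TSS. The strongest (5238264 to 5238511, signal 425) lay in the second intron of the longest transcript, at −1038 bp relative to an internal tkv TSS. It ranked 2735 in replicate 2 and 1022 in replicate 3. The next, with signals of 283 and 199, showed the same difference, at 4374 against 1829 and at 15267 against 2564. The 3 strongest tkv peaks therefore stood higher in replicate 3, whereas the next 2 (signals 153 and 143) ranked 4569 and 4852 in replicate 2 against 5221 and 6097. The promoter summit (signal 135) had no summit of replicate 2 within 100 bp and ranked 6574 in replicate 3. For 3 of the intronic summits the nearest TSS was that of Cyp4ac1, a cytochrome P450 gene. Of 35 pooled summits at tkv, 17.1% were IDR peaks, the lowest share among the members.

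The type II receptor gene put (3R, 14619030 to 14625703, minus strand) had 2 IDR summits in its first intron, 1492 and 851 bp downstream of its only TSS. The former (14624016 to 14624405, signal 226) ranked 4103 in replicate 2 and 3145 in replicate 3. The latter (signal 166) ranked 10746 in replicate 2 and 4467 in replicate 3, so it stood outside the strongest 5743 in replicate 2. The strongest peak of the window (signal 317) was at the promoter of CG14853, 9566 bp beyond the 3′ end of put. The other type I receptor gene, sax (2R, 7806484 to 7810067, plus strand), had no IDR summit in its body or with its own TSS nearest. Its single IDR peak (7812211 to 7812450, signal 406) lay 169 bp upstream of the TSS of puml, with rank 1227 in replicate 2 and 1710 in replicate 3.

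The Smad genes showed both a strong intragenic peak and a window with none of its own. At Mad (2L, 3146056 to 3159643, minus strand), which encodes the receptor-regulated Smad of the pathway, the strongest IDR peak (3153213 to 3153587) had a signal of 1078. It lay in the first intron, 672 bp upstream of an internal Mad TSS. It ranked 253 in the pooled list, 254 in replicate 2 and 249 in replicate 3, nearly the same place in both. The other IDR summit at Mad (signal 156) was also in the first intron and was listed only in replicate 3, at rank 3638, with the closest replicate 2 summit 3955 bp away. Med (3R, 31611046 to 31615375, plus strand), which encodes the common partner Smad Medea, had 1 IDR peak in its window. This peak (31615980 to 31616363) had the highest signal at any member, 1776, and ranked 68 in replicate 2 and 86 in replicate 3. Its summit lay 788 bp beyond the 3′ end of Med and 3 bp upstream of the TSS of Mnat9, an N-acetyltransferase gene by its name. Only 4 pooled summits fell in the window of Med, and none in its body.

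At Dad (3R, 17054007 to 17070408, plus strand), the inhibitory Smad gene, 4 of the 5 IDR summits were intronic. The strongest (17064966 to 17065305, signal 927) lay in intron 5 of 7 of the longest transcript and ranked 354 in replicate 2 and 371 in replicate 3. By distance its nearest TSS was that of Ns1, a gene for a nucleostemin GTPase, 7525 bp away, although the summit lay inside Dad. Summits in introns 2 and 3 had signals of 228, 303 and 174, with ranks between 2143 and 5087 in either replicate. The remaining IDR summit (signal 205) lay 1032 bp upstream of Dad in intergenic sequence. It ranked 2825 in replicate 3, while replicate 2 had no summit nearer than 4104 bp.

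The repressor gene brk (X, 7307939 to 7311132, plus strand) had 6 IDR summits within 10 kb and none in its single-exon body. The gene lies inside an intron of the much longer gene CG1677, so the summits around it were classed as intronic or promoter. The strongest (7306922 to 7307468, signal 1222) lay 724 bp upstream of the brk TSS and ranked 173 in replicate 2 and 208 in replicate 3. A further 4 lay upstream at distances of 1974, 5395, 6292 and 8368 bp, with signals of 194, 248, 289.7 and 231. Their ranks ran from 2644 to 4869 in replicate 2 and from 2160 to 3271 in replicate 3. The summit at 8368 bp had the TSS of unc-119 nearest. The last summit (7319090 to 7319430, signal 771) lay 8143 bp beyond the 3′ end in an intron of Atg5, an autophagy gene, and ranked 754 in replicate 2 and 414 in replicate 3. The TSS of brk was nearest to 4 of the 6 summits. With all 6 counted, the density was 2.59 IDR summits per 10 kb, at percentile 99.3 among all protein-coding genes and the highest of the members at this window width. The place of brk depended on that width. With 5 kb on each side it had 2 summits (1.52 per 10 kb), fewer per length than Dad (1.89) and shn (1.76), and with 20 kb it had 11 (2.55 per 10 kb).

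At shn (2R, 11159086 to 11217394, plus strand), which encodes the nuclear cofactor of Mad and Medea, 12 of the 14 IDR summits lay inside the gene, with 6 in the first and 6 in the second intron of the longest transcript. The summit closest to the annotated 5′ end lay 17450 bp from it. The strongest (11194649 to 11195071, signal 1091) ranked 333 in replicate 2 and 210 in replicate 3, and the next (11184404 to 11184719, signal 851) ranked 416 and 428. A further 4 intronic peaks had signals from 435 to 478 and ranks from 845 to 1632 in either replicate. The others inside the gene had signals from 132 to 282. The remaining 2 IDR summits were at the promoter of CG7737, 305 and 104 bp upstream of its TSS, with signals of 670 and 265. In the window of shn 2 pairs of summits came from the same or overlapping peaks, so that the 14 summits formed 12 separate regions. With a count of 14, shn stood at percentile 99.9 among all genes, and at percentile 95.5 by summits per 10 kb, since its window measures 78309 bp.

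**Figure D2:**
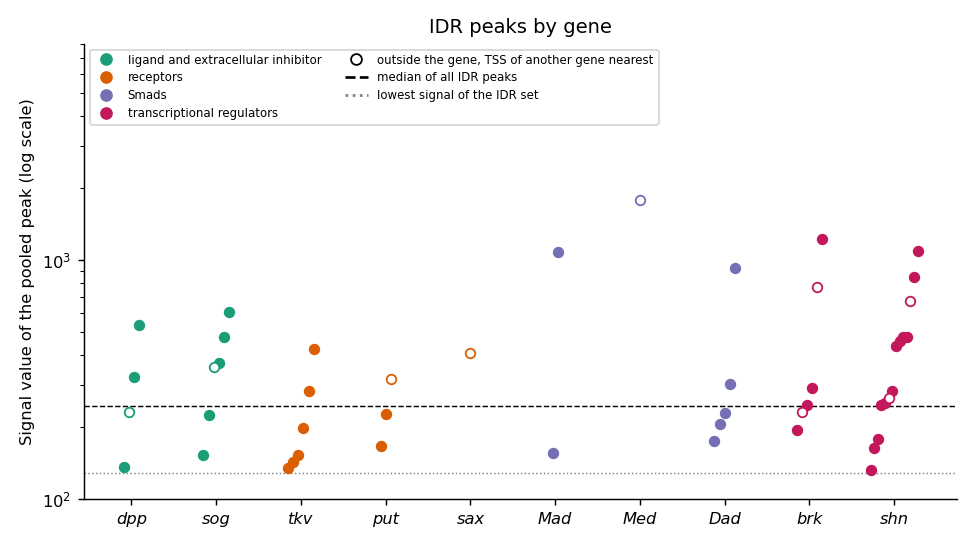
Signal value of each IDR peak in the window of each gene, on a log scale. Filled circles lie in the gene or nearest to its TSS, and open circles lie outside it with another gene's TSS nearest. The dashed line is the median of all IDR peaks (246) and the dotted line the lowest signal of the set (129). The sole peaks of sax and Med are open circles, and the 3 receptor genes have no peak above 425.

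By role, the windows of the transcriptional regulators brk and shn were the densest, and the order of the other roles was not the same in both replicates. IDR summits numbered 20 at the regulators (1.97 per 10 kb), 10 at dpp and sog (0.98 per 10 kb), 10 at the receptors (0.82 per 10 kb) and 8 at the Smads (0.85 per 10 kb). Over the 6 chromosome arms the mean was 0.43 per 10 kb. Among the strongest 5743 peaks of replicate 2 the densities were 2.17, 1.08, 0.82 and 0.74 per 10 kb in the same order. Among those of replicate 3 they were 1.97, 0.69, 0.73 and 0.85. With 5 kb on each side in place of 10, the IDR densities were 1.72, 0.98, 0.97 and 1.24, and with 20 kb they were 1.77, 0.78, 0.60 and 0.78. The regulators thus led in each list and at each width, while ligand and inhibitor, receptors and Smads changed places between replicates. The median signal of IDR peaks was 341 at dpp and sog, 286 at the regulators, 266 at the Smads and 212 at the receptors, against 246 for all IDR peaks. With 2 or 3 genes a role and no second group of samples, these differences were not tested.

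Long genes have long windows, so the density was also set beside genes of like length. For dpp, sog, tkv and shn, with bodies over 30 kb, the densities of 0.78, 1.20, 0.83 and 1.79 per 10 kb stood at percentiles 82.4, 93.4, 84.8 and 98.7 of the 663 genes in that class, whose median was 0.30. For Mad (0.60) and Dad (1.37), with bodies of 10 to 30 kb, the percentiles were 56.8 and 90.7 of 1314 genes. Among the 11968 genes under 10 kb, put (1.12) stood at 83.5, sax (0.42) at 42.8, Med (0.41) at 41.2 and brk (2.59) at 99.2. The members' median density was 0.98 per 10 kb, against 0.45 over all genes. These percentiles describe the members and carry no test, and overlapping windows of neighbouring genes share summits.

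**Figure D3:**
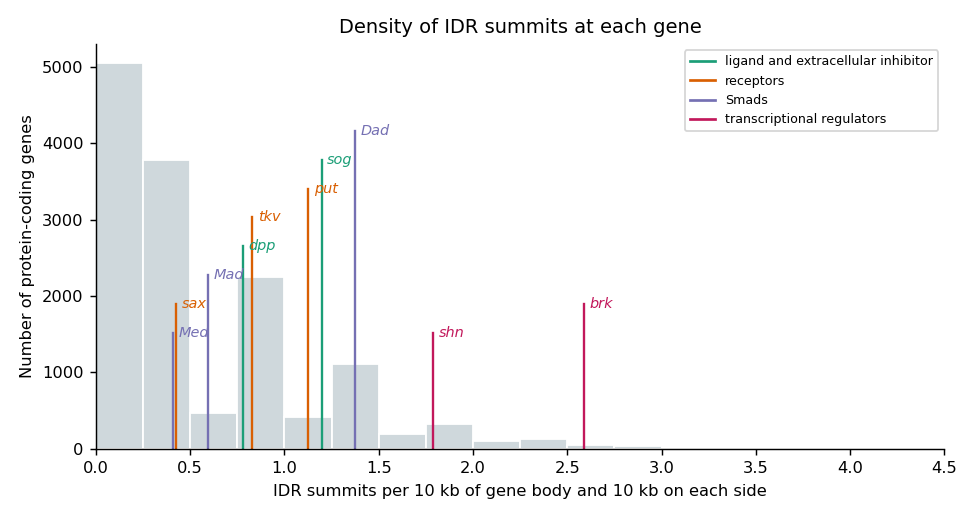
IDR summits per 10 kb of gene body and 10 kb on each side. Bars count all 13945 protein-coding genes, and coloured lines mark the 10 members by role, with line height chosen only to separate the names. The members run from 0.41 for Med to 2.59 for brk, and 2 of them lie below the median of all genes (0.45).

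The IDR summits of the members were mostly intronic. Introns held 33 of 48 (68.8%), promoters 11 (22.9%), intergenic sequence 4 (8.33%), and exons outside promoters none. Over all IDR summits the shares were 35.5% for introns, 43.7% for promoters and 19.9% for intergenic sequence. These shares are not like for like, since the windows were laid on gene bodies. Of the 33 intronic summits, 12 were in shn alone, and those in the window of brk lay in CG1677 or Atg5, not in a member. A promoter summit lay within 1 kb of a TSS. By this measure 5 members had one at their own TSS, namely sog, tkv, put, Mad and brk, against 21.9% of all genes. These 5 summits lay 598 to 851 bp from the TSS, and none was within 500 bp, where 18.5% of all genes had an IDR summit. Upstream of the TSS were those of brk (724 bp) and Mad (672 bp), and downstream those of sog, tkv and put. That of Mad lay at an internal TSS. With only the most 5′ TSS of each gene, 4 members (sog, tkv, put and brk) had a promoter summit, against 19.7% of all genes. The members had from 1 to 5 TSSs each, and the shares over all TSSs are not matched for TSS number. Pooled summits outside the IDR set did lie within 500 bp of member TSSs, so the absence of IDR summits there rests on the cut in pooled signal. They included summits at shn (366 bp upstream, signal 119, and 69 bp downstream, 111), tkv (77 bp upstream, 118) and put (8 bp downstream, 87). Others at Mad (70 bp upstream) and Dad (25 bp downstream) had signals of 57 and 31. In single replicates some of these stood within the strongest 5743. The summits at tkv (77 bp upstream) and shn (366 bp upstream) ranked 5283 and 5364 in replicate 2, but 7382 and 6894 in replicate 3. That at put (8 bp downstream) ranked 5723 in replicate 3 and had no match in replicate 2. The 6 IDR promoter summits at other genes in the windows lay 3 to 305 bp from the TSS. Of all 2511 IDR promoter summits, 79.0% lay within 500 bp, with a median distance of 202 bp. Without replicate 2, 3 members (Mad, brk and put) had a promoter summit among the strongest 5743 peaks of the other replicate.

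The replicates ranked most of these peaks alike. Of the 48 IDR summits, 40 (83.3%) had a match (a summit at most 100 bp away) among the 5743 strongest of replicate 2. The same held for 42 (87.5%) in replicate 3 and for 36 in both. For all IDR summits the shares were 83.7%, 89.2% and 74.5%. A match in neither replicate's 5743 strongest was found for 2 member summits (4.17%), against 1.71% of all IDR summits. Because the replicate lists were inputs to the IDR set, a high share follows in part from how it was made. In the full lists 43 summits were matched in both replicates, and the ranks of 35 of them (81.4%) differed by less than 2-fold, against 81.9% of all matched IDR summits. The 5 without a match in a replicate were at CG9886 beside dpp (replicate 3), and at tkv, Mad, Dad and shn (replicate 2). The last of these missed the limit of 100 bp by little, with a replicate 2 summit 104 bp away. The largest gap between matched ranks was at tkv, for the peak ranked 15267 and 2564.

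**Figure D4:**
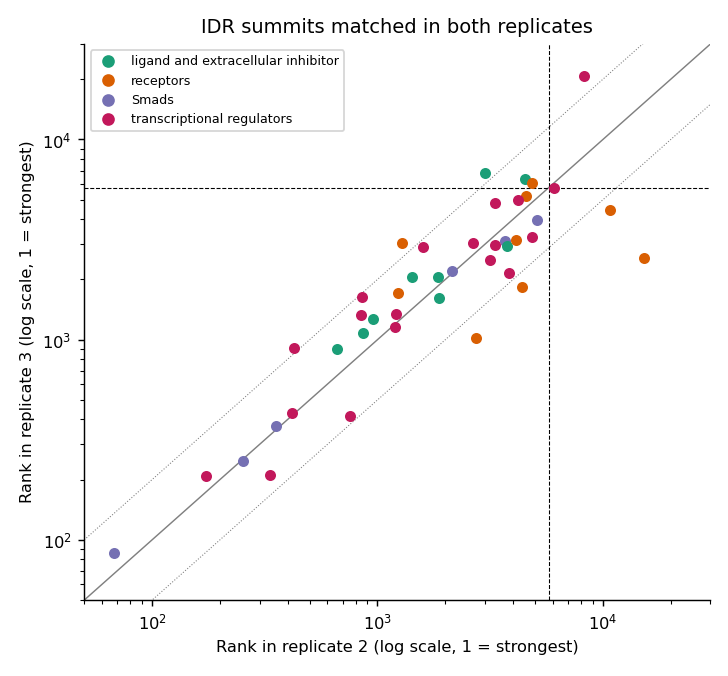
Rank of 43 member IDR summits in replicate 2 and replicate 3, on log scales with 1 the strongest. The solid line marks equal ranks, dotted lines a 2-fold difference and dashed lines rank 5743. Most points lie between the dotted lines, and 4 receptor points fall below them, with a stronger rank in replicate 3. Points from the windows of put, sog and shn lie above them, with a stronger rank in replicate 2.

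The limits of the set and of the window passed close to some member summits. The weakest IDR peaks at the members, at shn (signal 132) and tkv (135), stood just above the lowest signal of the set (129). Just outside it were a summit in a tkv intron (signal 125, rank 5933) and another in a sog intron (122, rank 6065). Next came promoter summits of shn (119, rank 6201) and tkv (118, rank 6295). At the window edge, the CG14853 promoter summit at put lay 9.57 kb from the gene body and was counted. A summit 10.4 kb from Dad, with signal 903 and the TSS of kuk nearest, was not. Beyond the window of brk were 5 IDR summits between 13.6 and 15.9 kb away, with signals from 538 to 1394, for which unc-119 or Dok had the nearest TSS.

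Base composition followed that of the whole IDR set. Mean GC within 50 bp of the 48 summits was 31.1% ± 8.14 (SD over summits), against 44.4% ± 7.67 in windows centred 500 bp away on both sides. Over all IDR summits the means were 30.5% ± 7.71 and 43.6% ± 7.34. The flanks had the higher GC content for 43 of 48 summits (89.6%), against 88.5% of all. Among the sequences printed above, the summit of tkv had 21.8% against 42.6% at its flanks and that of Dad 25.7% against 44.1%, while that of sog had 37.6% against 30.2%. The highest values, 64.4% and 54.5%, were at 2 secondary summits of shn and CG7737, each beside a stronger summit whose own GC was 24.8% and 36.6%.

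**Figure D5:**
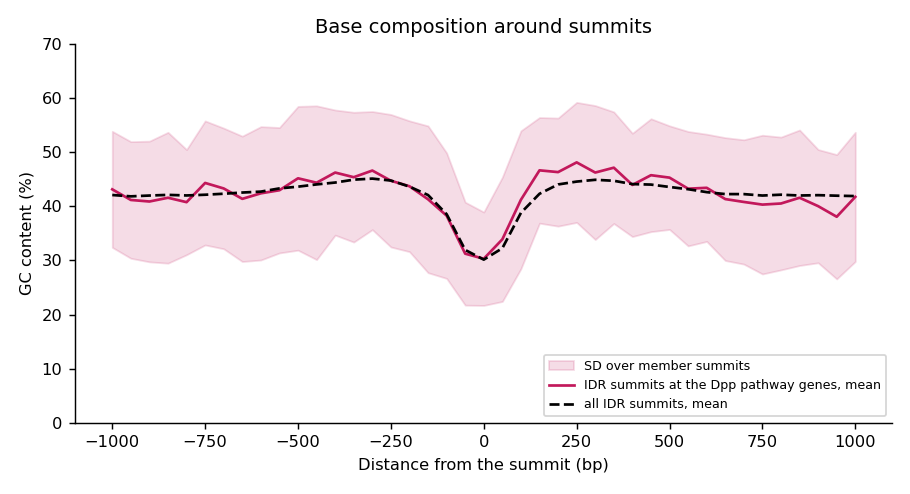
Mean GC content in 51 bp windows by distance from the summit in bp. The red line and its band (SD over 48 summits) are IDR summits at the Dpp pathway genes, and the dashed line is all 5743 IDR summits. Mean GC at the summit was 30.3% for the members and 30.2% for all, against 46.6% and 45.1% at 300 bp on the left.

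The degenerate forkhead pattern RYAAAYA occurred within 50 bp of 16 of the 48 summits (33.3%), with sax the sole member lacking one, against 35.9% of all IDR summits and 26.8% of the other pooled summits. By role it was found at 4 of 8 Smad summits, 4 of 10 receptor summits, 3 of 10 at dpp and sog and 5 of 20 at the regulators. The strict forkhead motif GTAAACA occurred at none of the 48, against 2.86% of all IDR summits. The GATA pattern WGATAR was found at 15 summits (31.3%), at sog, tkv, put, brk and shn, against 24.7% of all IDR summits, and TAATTA at 6 (12.5%) against 12.5%. Short patterns linked to the pathway itself occurred at shares near those of the whole IDR set. The Smad box CAGAC was found at 4 summits (8.33%), against 5.68% of all IDR summits and 11.4% of the other pooled summits. The Mad pattern GCCGNC was found at 1 (2.08%), at shn, against 2.47% and 11.2%. The Brinker pattern GGCGYY was also found at 1, at Dad, against 4.0% and 10.2%. The Schnurri-Mad-Medea silencer element was found at none of the 48 and at none of all IDR summits, against 0.0206% of the other pooled summits. Both strands were searched, matches of different patterns may overlap, and a match is a stretch of letters, not a bound site. GC content was not measured at the other pooled summits, so comparisons with them are not matched for base composition.

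Other genes of Dpp and related BMP and activin signalling were described in the same way, 44 in all, each matched by symbol. An IDR summit lay in the window of 31 (70.5%, against 65.3% of all protein-coding genes). A summit lay within 1 kb of a TSS of 11, or 25% against 21.9%, namely dlp, magu, nord, wit, nej, Snoo, gro, ush, peb, tin and Doc1. Their median density was 0.51 per 10 kb, close to that of all genes. Of the 6 other ligand genes only gbb had IDR summits in its window, 3 in number, and gbb had the nearest TSS to none of them, while scw, mav, daw, Actbeta and myo had none. Of the 11 extracellular modulators 7 had some, and the heparan sulphate proteoglycan gene dlp had the most, 9. The promoter peak with the highest signal, 1142, was at magu (also called pentagone, a secreted Dpp regulator), which had 3 IDR summits, and nord, a secreted BMP modulator, had 2. Both other receptor genes had them, with wit, a type II receptor, at 3 and babo, the activin type I receptor, at 2. Among intracellular regulators the promoter peaks of gro (signal 1096), which encodes a corepressor that Brinker recruits, and of nej (865), the CBP coactivator gene, were the strongest. Of 18 targets 16 (88.9%) had an IDR summit in the window, with salr and pnr the exceptions, against the 65.3% of all genes. Among these, vg, zen, Ance, bam and Doc3 had the nearest TSS to no IDR summit. The median density of the targets was 0.51 per 10 kb, against 0.45 for all genes. The GATA cofactor gene ush had 19 in its window and Doc1, a T-box gene, had 5. A promoter peak was present at 4 targets, tin (signal 662), the heart and mesoderm homeobox gene, Doc1 (328), ush (279) and peb (270.2), and at none of the other 14.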

How the data were processed

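ChIP-seq peak lists of 2 biological replicates of 1 group were analysed. Per the text deposited beside the lists, peaks were called against a control for each replicate and for the pooled replicates, and the optimal IDR set derives from these 3 lists, in dm6 coordinates. The deposited signal value and −log10 q-value of each peak are the authors'. The −log10 q-value was 4.13 for every IDR peak, so peaks were ranked by signal. Which aligner, peak caller and IDR threshold were used is not given in the sources used here. Control reads were not analysed here, and depth is unknown.

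The 13945 protein-coding genes and their 19607 TSSs came from Ensembl release 115, and sequence from RefSeq's Release 6 assembly. At most 4 summits in a list lay outside their peak and were moved to its edge, none at a member. Classes were assigned in the order promoter (within 1 kb of a TSS), untranslated or coding exon, intron, intergenic. A replicate summit within 100 bp counted as a match. Introns were numbered in the longest transcript. The genes named are all 10 members, the gene nearest to each of their IDR summits and, per role, up to 4 other pathway genes ranked by promoter peak. Genes beyond the windows, and those named for having no summit, were chosen after their values were seen. The members and lists were chosen with earlier results of these data known. With 1 group no test was made. Peaks and genes are no replicates, so values over them carry no p-value. Window counting, matching and motif search were tested on simulated data. Alternatives covered the window, the number of peaks, each replicate alone, the promoter distance and the matching distance. The work used Python 3.11.15 with pandas 2.3.3, numpy 2.4.6 and matplotlib 3.10.9.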

Additional observations from a re-analysis of the deposited data

How the results depend on the processing

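Per gene, 25 of the 80 alternative counts moved by more than 1.5 times. Most of these moved under the window, the number of peaks or nearest TSS. With single replicates only the counts of dpp (without replicate 2) and Mad (without replicate 3) moved. With the strongest 2500 pooled peaks the windows held 25 summits in place of 48, or 0.60 per 10 kb, 14.5% of pooled summits, and 2 members had a promoter summit. With the strongest 10000 the density was 1.71 per 10 kb and the share 41.6%. The density ratio of the windows to the arms was 3.19 and 2.29 in these settings and 2.66 in the IDR set. Members with a promoter summit numbered 0 within 500 bp, 8 within 2000 bp, 3 without replicate 2 and 5 without replicate 3. The share matched in both replicates was 89.6% in the full lists. The number of members with a summit stayed at 10, except for 7 with the gene body alone and 8 by nearest TSS. Counting overlapping peaks once, a choice made after the data were seen, gave 46 regions. No paired analysis was possible because both samples belong to a single group. Depth was unknown, and the windows take in promoters of neighbouring genes, so a summit in a window is not a statement about which gene it serves.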
